A study of Mus musculus with 14 samples.

Results

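The MHC class I presentation genes are 10 genes that make, load and control the peptide-presenting class I molecule of the cell surface: B2m, H2-K1, H2-D1, Psmb8, Psmb9, Tap1, Tap2, Tapbp, Erap1 and Nlrc5. They were taken by gene symbol from 24675 named genes on Affymetrix Mouse Gene 2.0 ST arrays, where each has 1 probe set. All 10 were among the 15873 genes tested, a gene being tested where 3 or more arrays held it at or above their own 40th percentile. That level was met by 8 of the members on all 14 arrays, by Nlrc5 on 12 of 14 and by Tap2 on 11 of 14. Tap2 reached that level on 1 of 3 Atg7KO-High arrays and 3 of 3 WT-High arrays, and of 5 equal bands of tested genes by mean level Nlrc5 lay in the lowest and Tap2 in the next.

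The mice carried EGFP and a tamoxifen-inducible Cre at Lgr5 (Lgr5-EGFP-IRES-CreERT2), the knockout mice with floxed Atg7 alleles (Atg7(fl/fl)) in addition and the wild-type mice without them. Mice of both genotypes were given tamoxifen on 5 days in a row and killed 1 month later, so Cre induction is common to all groups. Crypt cells low in CD24 were sorted for high EGFP, named intestinal stem cells in the labels, or low EGFP, named their transit amplifying progeny. The 4 groups were Atg7KO-High (n = 3) and WT-High (n = 3), and Atg7KO-Low (n = 4) and WT-Low (n = 4), with 1 ng of RNA amplified per sample. Both Cre and EGFP follow the Lgr5 locus, so recombination depends on cells that express it or have expressed it. The samples are said to come from individual mice, and p-values rest on the spread between them. Age, sex and strain were not stated in the sources used here, and the class I heavy chains differ in sequence between mouse strains.

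Class I molecules show short peptides from the cell's own proteins to CD8 T cells. The immunoproteasome cuts proteins into peptides, the TAP transporter carries the peptides into the endoplasmic reticulum, and tapasin and ERAP1 help to select and trim those that bind the heavy chain together with beta-2 microglobulin. Interferons raise the expression of most of these genes, and NLRC5 is the transactivator that drives class I promoters through a set of conserved boxes. Intestinal epithelial cells, crypt stem cells among them, express class I molecules.

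The members lie in 4 places of the genome. H2-K1, Tapbp, Psmb9, Tap1, Psmb8, Tap2 and H2-D1 are in the MHC on chromosome 17, B2m is on chromosome 2, Nlrc5 on chromosome 8 and Erap1 on chromosome 13 (RefSeq, GRCm38.p6). Tap1 and Psmb9 are read in opposite directions with 225 bases between their starts, at chr17:34187331-34187555. Promoter sequences from RefSeq were at hand for 8 of the 10 members, not for Tap2 and Nlrc5. For Erap1 and H2-K1 the starts used lie inside the RefSeq bounds of the gene. Their windows therefore do not precede the outermost start. The boxes that NLRC5 and its partners use include an X2 box, searched here as TGACG, and a CCAAT box. B2m, H2-K1 and H2-D1 hold TGACG followed after 20 bases by ATTGG, the CCAAT box on the other strand. The 30 bases of that module are shown because all 3 genes encode a chain of the class I molecule itself, with both boxes in capitals, 5′ to 3′ on the strand of the gene.
B2m, chr2:122147609-122147638, plus strand: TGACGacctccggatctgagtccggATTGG
H2-K1, chr17:34000359-34000388, minus strand: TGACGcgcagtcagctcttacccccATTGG
H2-D1, chr17:35262993-35263022, plus strand: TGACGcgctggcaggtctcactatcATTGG
H2-K1 and H2-D1 share 13 of the 20 bases between the boxes, B2m and H2-K1 share 3 and B2m and H2-D1 share 2. The same spacing, on either strand, was found before 26 of 27025 genes in the table (0.0962%). In the lists described here it occurred in these 3 members and in H2-M3, another class I gene. Not all listed genes could be searched. A promoter sequence was at hand for 13 of 20 other class I genes listed, 4 of 7 class II genes, 9 of 12 GTPases and 15 of 18 interferon signalling genes.

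The whole 250 bases before the start are shown for B2m and H2-D1, and the bases between the starts for Tap1 and Psmb9, since their values are described together. Capitals mark TGACG and CCAAT, the kappa B motif, the interferon-stimulated response element (ISRE) and its shorter form GAANNGAAA, on either strand.
B2m, chr2:122147437-122147686, plus strand: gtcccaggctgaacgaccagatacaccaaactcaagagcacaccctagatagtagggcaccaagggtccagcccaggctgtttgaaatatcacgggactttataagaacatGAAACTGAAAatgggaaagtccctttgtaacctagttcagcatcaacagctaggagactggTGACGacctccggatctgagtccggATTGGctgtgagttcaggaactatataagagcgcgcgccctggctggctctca
H2-D1, chr17:35262844-35263093, plus strand: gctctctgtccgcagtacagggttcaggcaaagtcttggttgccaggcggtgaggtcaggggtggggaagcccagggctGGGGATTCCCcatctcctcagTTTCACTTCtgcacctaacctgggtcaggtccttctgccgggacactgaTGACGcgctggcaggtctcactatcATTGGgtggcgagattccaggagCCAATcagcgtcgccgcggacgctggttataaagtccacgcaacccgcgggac
Tap1 and Psmb9, chr17:34187331-34187555, plus strand: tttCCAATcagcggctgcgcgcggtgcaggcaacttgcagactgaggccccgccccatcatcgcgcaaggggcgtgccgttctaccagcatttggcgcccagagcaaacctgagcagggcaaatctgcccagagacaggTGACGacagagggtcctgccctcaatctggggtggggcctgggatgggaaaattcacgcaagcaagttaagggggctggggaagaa
TGACG occurred before 5 of the 8 members (B2m, H2-K1, H2-D1, Tap1 and Psmb9, with 1 copy shared by Tap1 and Psmb9) and in 17.8% of all 32851 promoters. CCAAT occurred before 6 of 8 and in 33.8% of all. The full ISRE was found before B2m and in 2.98% of all promoters, and the shorter form before H2-K1 and H2-D1 and in 6.31%. The kappa B motif, in the form searched here, stood before H2-K1 and H2-D1 as well, against 1.53% of all. Other forms of this motif were neither searched nor set in capitals. The search therefore cannot show that B2m or another member lacks a kappa B motif. TTCNNNGAA, a STAT binding motif (GAS), was found before Psmb8 and in 7.02%. These are matches of letters in this window and not measured sites, and the motifs and the spacing were chosen with the sequences in view.

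**Figure D1:**
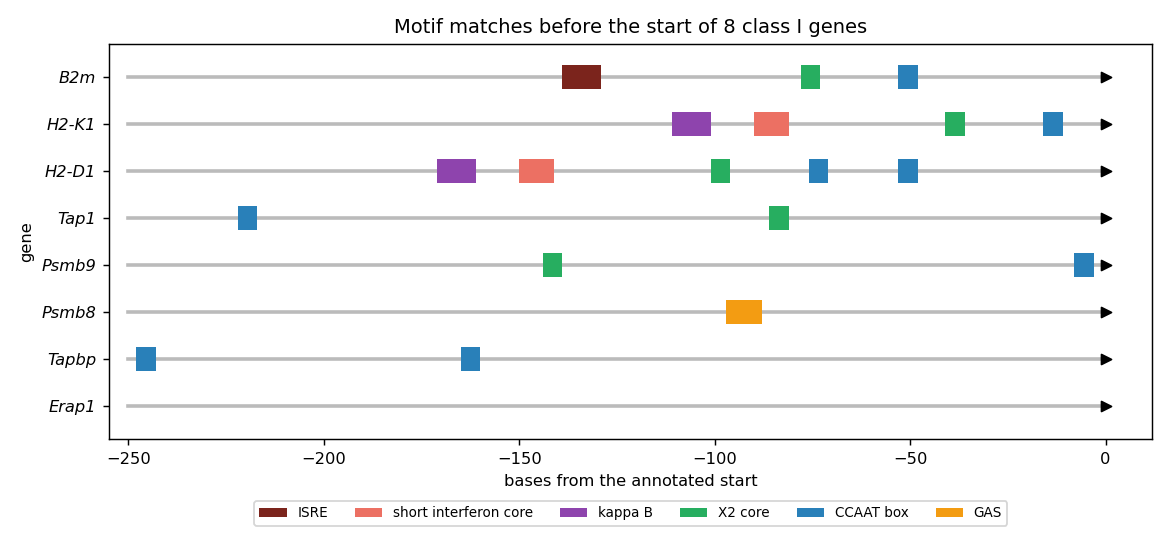
Motif matches in the 250 bases before the annotated start (arrowhead) of 8 class I genes, as distance from the start in bases. B2m, H2-K1 and H2-D1 carry the X2 core and the CCAAT box with 20 bases between them. Erap1 has none of the 6 motifs, as searched, in its window. Other forms of the kappa B motif were not searched and are not drawn, for B2m or any other gene. H2-K1 is drawn from the upstream of its 2 starts. The windows of Erap1 and H2-K1 lie inside the RefSeq bounds of the gene.

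The targeted gene and the gate marker were read first. Atg7 was lower on each knockout array than on any wild-type array of its gate (5.91 to 6.37 in Atg7KO-High and 6.76 to 6.83 in WT-High, and 5.65 to 6.06 in Atg7KO-Low and 6.46 to 7.49 in WT-Low; limma adjusted p = 0.208 and 0.166). Lgr5 was higher in the EGFP high gate by 3.32 (SE 0.33, limma adjusted p = 0.000138) in the knockout and by 3.52 (SE 0.33, limma adjusted p = 0.000247) in wild type. The SD of all log2 values of an array was 1.90 to 1.98 in Atg7KO-High and 1.99 to 2.06 in WT-High, and highly expressed genes read lower in Atg7KO-High: the median difference over all genes was -0.24 in the band with the highest level, -0.20 in the next and 0.13 in the lowest. Of the members, Tap1 is in the second of these bands and 7 are in the highest, and the part of this shift in their differences was not tested. Leukocytes express class I molecules strongly. Ptprc, the pan-leukocyte marker CD45, was below the level required for testing (3.26 to 3.40 in Atg7KO-High, 3.29 to 3.77 in WT-High, 3.13 to 3.60 in Atg7KO-Low and 3.10 to 3.36 in WT-Low) and was 1 of 10 leukocyte markers, of 25 on the array, that were not tested. The mean over the 15 tested markers was 4.57 to 4.63 in Atg7KO-High and 4.36 to 4.68 in WT-High, and 4.17 to 4.69 in Atg7KO-Low and 4.38 to 4.65 in WT-Low. Of these 15 markers 7 read higher and 8 lower in Atg7KO-High than in WT-High, with a median of -0.01. Fcer1g was at 0.56 (SE 0.29), higher without overlap, Cd4 at 0.42 (SE 0.21) and Cd8a at 0.38 (SE 0.19). Among the lower ones Itgam was at -0.24 (SE 0.14), without overlap, and Cd3e at -0.23 (SE 0.22). Apart from Ptprc, the leukocyte markers named here were chosen after their values were seen. Among them are the granzymes Gzma and Gzmb, proteases of cytotoxic lymphocytes. Gzma read 6.47 to 6.80 in Atg7KO-High and 6.60 to 6.97 in WT-High, and 5.43 to 7.72 in Atg7KO-Low and 5.35 to 7.95 in WT-Low. Gzmb read 4.19 to 4.29 in Atg7KO-High and 4.52 to 5.15 in WT-High, without overlap (-0.56, SE 0.33), and 3.96 to 5.73 in Atg7KO-Low and 3.94 to 4.51 in WT-Low (0.77, SE 0.28). Its difference of effects was -1.33 (SE 0.43, limma adjusted p = 0.254), of the same sign as that of the class I genes, and the part of lymphocyte RNA in the class I differences was not tested.

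The first comparison asks whether the class I genes differ in the stem cell gate without Atg7. All 10 members read lower in Atg7KO-High than in WT-High cells, by a median log2 difference of -0.50 (range -0.84 to -0.08), where 53.8% of all genes tested read lower and their median was -0.03. None of the 10 passed limma's test at adjusted p under 0.05, which called 0.0126% of all genes. At an unadjusted p under 0.05 there were 6 of 10, all lower, against 9.88% of all genes lower at that level. The groups did not overlap for 2 of 10, H2-D1 and Tapbp, against 15.2% of all genes below without overlap. All comparisons below reuse these 4 groups, so each shares samples with others. Fewer cells of a type and less RNA per cell cannot be told apart in these sorted cells.

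Of the chains of the molecule, B2m, the shared light chain, read 12.20, 11.96 and 12.47 in Atg7KO-High-356, Atg7KO-High-348 and Atg7KO-High-386, and 12.71, 12.66 and 12.45 in WT-High-388, WT-High-411 and WT-High-412, the order used for the values of this gate. The groups touched only where Atg7KO-High-386 stood just above WT-High-412. The difference was -0.40 (95% interval -0.74 to -0.06, limma adjusted p = 0.258). H2-D1, a classical heavy chain, read 11.24, 11.81 and 11.81 in the knockout and 12.03, 12.23 and 11.88 in wild type, with all knockout values below. Its difference of -0.43 had an interval of -0.85 to 0.00 (limma adjusted p = 0.315). H2-K1, another classical heavy chain, read 8.40, 8.97 and 9.38 in the knockout and 9.44, 9.87 and 9.08 in wild type, and differed by -0.55 (interval -1.17 to 0.07, limma adjusted p = 0.367). Heavy chain genes are close relatives, and how far a probe set reads its neighbours was not tested.

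Of the inducible proteasome subunits, Psmb8 (LMP7) read 7.93, 7.99 and 8.61 in Atg7KO-High and 8.95, 9.25 and 8.48 in WT-High. Psmb9 (LMP2) read 10.11, 9.96 and 10.75 in the knockout and 10.82, 11.17 and 10.56 in wild type. In both genes Atg7KO-High-386 lay above WT-High-412 and the other knockout samples lay below all of wild type. Psmb8 differed by -0.71 (SE 0.31) and Psmb9 by -0.58 (SE 0.25), with limma adjusted p = 0.287 and 0.278.

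The peptide transporter showed the largest difference of the 10. Tap1, one of its subunits, read 6.19, 6.25 and 7.01 in Atg7KO-High and 7.36, 7.74 and 6.88 in WT-High. As for the proteasome genes, Atg7KO-High-386 was the sample that overlapped wild type. The difference was -0.84 (SE 0.27, interval -1.42 to -0.27), or 0.557 of the wild-type level, with limma adjusted p = 0.187; all genes in its band of level had a median of -0.20. Tap2, the other subunit, read 3.96, 3.80 and 4.38 against 4.40, 4.92 and 4.19, and differed by -0.45 (SE 0.27, limma adjusted p = 0.417) at levels where few knockout arrays reached the required value.

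Tapbp encodes tapasin, which holds the empty heavy chain at the transporter. It read 6.98, 7.35 and 7.39 in Atg7KO-High and 7.92, 8.19 and 7.59 in WT-High, without overlap, and differed by -0.66 (SE 0.24, limma adjusted p = 0.233). Erap1, the aminopeptidase that trims peptides in the endoplasmic reticulum, read 7.55, 7.70 and 8.13 against 8.00, 8.25 and 8.23, and differed by -0.37 (SE 0.15, limma adjusted p = 0.273). Nlrc5, the transactivator, read 4.03, 4.22 and 4.61 against 4.51, 4.36 and 4.25 and had the smallest difference, -0.08 (SE 0.25, limma adjusted p = 0.896). Its interval of -0.63 to 0.46 does not exclude a difference as large as the median of the 10.

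Between the samples, Atg7KO-High-356 was the lowest of the 6 EGFP high arrays for 7 members and Atg7KO-High-348 for the other 3, while WT-High-411 was the highest for 8. The mean over the 10 members was 7.86 and 8.00 in those knockout samples and 8.46 in Atg7KO-High-386, and 8.61, 8.86 and 8.36 in WT-High-388, WT-High-411 and WT-High-412. The median difference over the members was -0.40 without Atg7KO-High-356, which has the narrowest spread of values, -0.36 without WT-High-411 and -0.68 without Atg7KO-High-386. With the array SD as a covariate it was -0.43 and with cyclic loess -0.37, and 0 members were called in any of these fits. For Tap1, Psmb8, Psmb9 and B2m no alternative moved the difference by over 1.5 times. With the array SD as a covariate Tapbp was at -0.17, Erap1 at -0.13 and Tap2 at -0.021, against -0.66, -0.37 and -0.45 without it. Erap1 was also at -0.16 after repeated quantile normalization and -0.15 with cyclic loess, and H2-K1 at -0.34 with cyclic loess. Nlrc5 was at -0.43 with the SD covariate. Without Atg7KO-High-356 H2-K1 was at -0.29 and H2-D1 at -0.23. Without WT-High-411 H2-K1 was at -0.35 and Tap2 at -0.24.

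**Figure D2:**
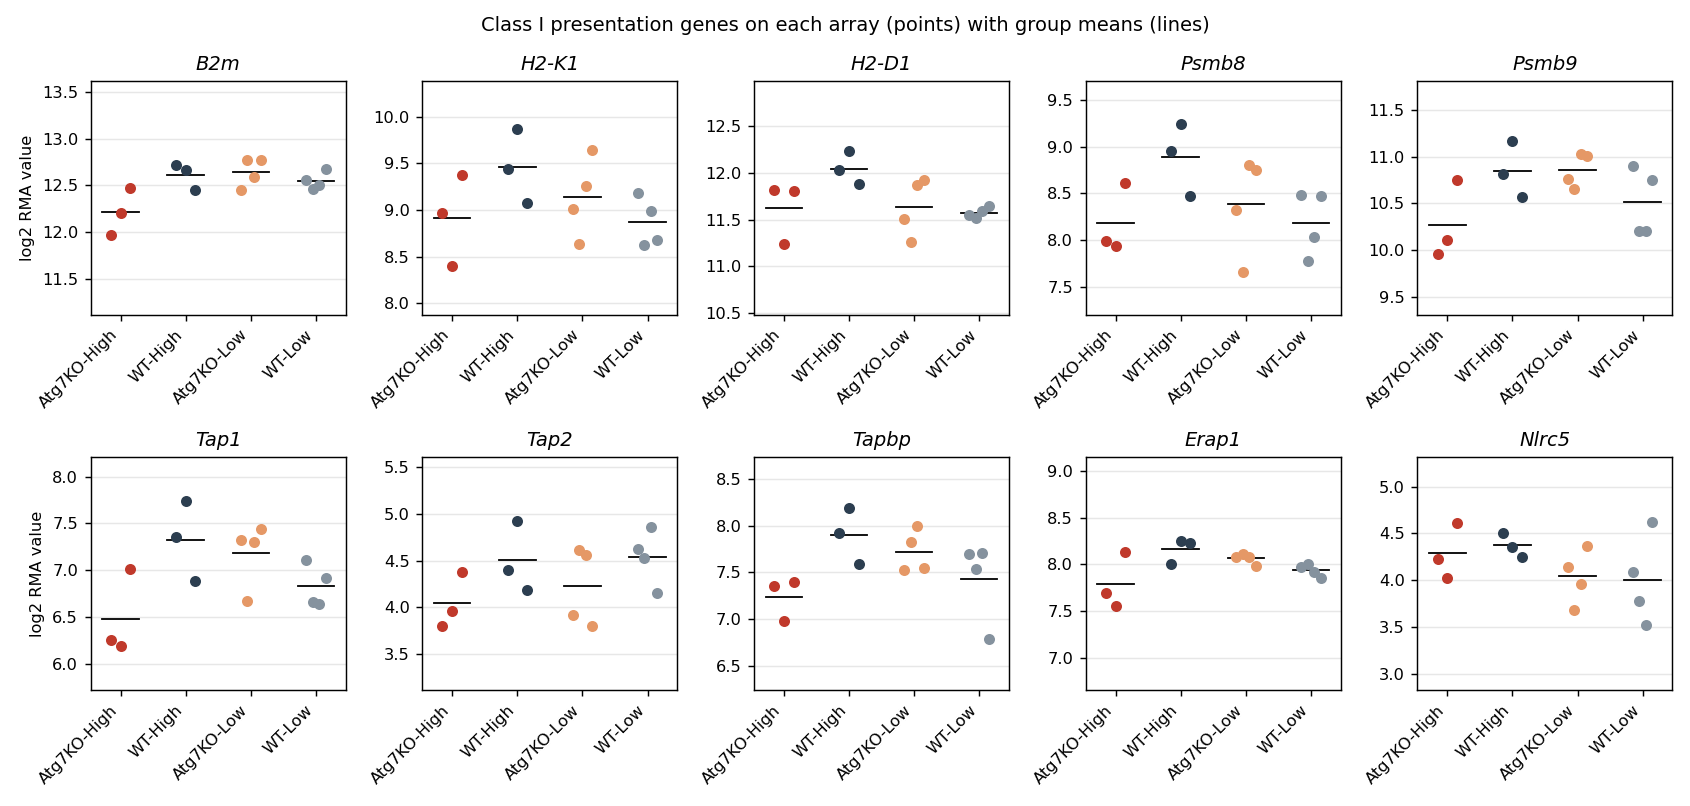
Log2 RMA values of the 10 genes on each array (points) in Atg7KO-High, WT-High, Atg7KO-Low and WT-Low, with lines at the group means; every panel spans the same number of log2 units. In the EGFP high gate the means lie lower in the knockout for all 10 genes, and in all panels but those of H2-D1 and Tapbp the knockout and wild-type points of that gate overlap.

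The other genes of the pathway were read from lists. Of all genes tested 53.8% read lower in Atg7KO-High, with a median of -0.24 in the band with the highest level and -0.20 in the next. The part of that shift in the lists was not tested. Of 6 other proteasome genes 5 read lower in Atg7KO-High (median -0.16), with Psmb10, the third inducible catalytic subunit, at -0.45 (SE 0.17) and Psmb7, a constitutive one, at -0.39 (SE 0.18). All 9 peptide loading and trimming partners read lower (median -0.35), led by Hspa5, the chaperone BiP, at -0.55 (SE 0.20), and by Canx, the chaperone calnexin, at -0.34 (SE 0.16). Of 18 other class I and class I-like genes 10 read lower and 8 higher, with a median of -0.03. H2-T23 (Qa-1), a ligand of receptors on NK cells, was at -0.62 (SE 0.31), and H2-K2 was at 0.33 (SE 0.16). Of 17 interferon receptor and signalling genes 14 read lower (median -0.26). Irf8, an interferon regulatory factor, was at -0.74 (SE 0.23) and Jak1, a receptor kinase, at -0.52 (SE 0.18), both without overlap. Of 8 partners of NLRC5 at class I promoters 7 read lower (median -0.28), with the CCAAT-binding subunit Nfyb at -0.46 (SE 0.22) and Rfxap, a subunit of the RFX complex, at -0.54 (SE 0.29). Of 8 interferon-inducible GTPases 7 read lower (median -0.48), with Irgm1 at -0.53 (SE 0.26) and Irgm2 at -0.90 (SE 0.48). All 7 MHC class II genes read lower (median -0.86), with the peptide editor subunits H2-DMb1 at -1.45 (SE 0.49) and H2-DMa at -0.86 (SE 0.30). None of the 73 genes in these lists was called by limma. Irf8 had the smallest adjusted p among them, 0.181, and 10 of 73 had an unadjusted p under 0.05, against 15.9% of all genes in either direction.

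Markers of differentiated crypt cells read lower along with the class I genes in this comparison. None of the markers below was called by limma. Goblet markers averaged 8.14 to 9.99 in Atg7KO-High and 9.67 to 10.20 in WT-High over 9 genes, Paneth markers 7.58 to 8.73 and 9.11 to 9.82 over 9, and enterocyte markers 7.53 to 7.80 and 7.72 to 9.13 over 10. Clca1 of goblet cells differed by -1.77 (SE 0.43), Ang4 of Paneth cells by -2.30 (SE 0.40) and Fabp1 of enterocytes by -1.41 (SE 0.35). WT-High-411, highest for most class I members, had the lowest goblet and enterocyte means and the highest Paneth mean of the 3 wild-type samples. The part of these cells in the class I differences was not tested. The 9 Lgr5 stem cell markers had a median of 0.05, 7 tested stromal and endothelial markers of 0.13, 4 tuft markers of -0.05 and 3 enteroendocrine markers of -0.39.

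In the transit amplifying gate the same question gave small differences of the other sign. Of the 10 members 9 read higher in Atg7KO-Low than in WT-Low cells, with a median of 0.16 (range -0.32 to 0.35), where 50.3% of all genes read higher and their median was 0.00. None was called by limma, against 0.0063% of all genes called, and none reached an unadjusted p under 0.05, against 3.86% of all genes higher at that level. No member's groups were free of overlap, against 1.71% of all genes higher without overlap.

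Tap1 read 6.67, 7.32, 7.44 and 7.30 in Atg7KO-Low-356, Atg7KO-Low-353, Atg7KO-Low-387 and Atg7KO-Low-386, and 7.10, 6.66, 6.64 and 6.92 in WT-Low-341, WT-Low-407, WT-Low-409 and WT-Low-411. In the knockout 3 samples lay above all of wild type and Atg7KO-Low-356 lay beside the lowest of them. The difference was 0.35 (SE 0.23, interval -0.15 to 0.85, limma adjusted p = 0.779). Psmb9 read 10.66, 10.76, 11.01 and 11.03 against 10.90, 10.20, 10.21 and 10.75, and differed by 0.35 (SE 0.21, limma adjusted p = 0.762). Its 2 highest knockout samples, Atg7KO-Low-387 and Atg7KO-Low-386, were above all of wild type. Psmb8 lay at 7.66 to 8.80 in the knockout and 7.77 to 8.48 in wild type, and differed by 0.20 (SE 0.27).

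B2m varied little in this gate. It ranged over 12.45 to 12.77 in Atg7KO-Low and 12.46 to 12.68 in WT-Low, with a difference of 0.09 and an interval of -0.20 to 0.39. The heavy chains H2-D1 (11.26 to 11.92 and 11.52 to 11.65) and H2-K1 (8.63 to 9.64 and 8.63 to 9.18) differed by 0.06 (SE 0.17) and 0.27 (SE 0.25), and both were more spread among knockout than among wild-type samples. Tapbp read 7.83, 7.52, 7.54 and 8.00 in the knockout and 7.70, 7.53, 7.71 and 6.79 in wild type, where WT-Low-411, the wild-type array with the narrowest spread of values, lay apart. Its difference was 0.29 (SE 0.21). Erap1 lay at 7.98 to 8.11 against 7.86 to 8.00 and differed by 0.13 (SE 0.13). Tap2 was the member that read lower, by -0.32 (SE 0.23), with 3.80 to 4.62 against 4.15 to 4.86, and Nlrc5 differed by 0.04 (SE 0.22). The median was 0.09 without Atg7KO-Low-387 and 0.11 without WT-Low-407 or with cyclic loess. For Tap1 no alternative moved the difference by over 1.5 times. Without WT-Low-411 Tapbp was at 0.078, and without Atg7KO-Low-387 H2-K1 was at 0.10 and Psmb8 at 0.072. With cyclic loess Psmb9 was at 0.23.

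Among the companions, all 6 other proteasome genes, all 8 GTPases and all 7 class II genes read higher in Atg7KO-Low, with medians of 0.14, 0.47 and 0.21. H2-DMb1 was at 1.41 (SE 0.43, limma adjusted p = 0.522), Igtp, one of the GTPases, at 1.12 (SE 0.70), and Irgm1 at 0.48 (SE 0.23). Psme2, a subunit of the proteasome activator PA28, was at 0.26 (SE 0.18) and Psmb10 at 0.20 (SE 0.15). H2-T23 was at 0.57 (SE 0.27) within a class I list that had a median of 0.08. Loading partners and interferon signalling genes had medians of 0.00 and 0.02, with Irf8 at 0.48 (SE 0.20) and Bcap31, a chaperone of newly made membrane proteins, at 0.21 (SE 0.15). NLRC5 partners had a median of 0.14, with Rfxank, an RFX subunit, at 0.53 (SE 0.21). None of the 73 genes was called by limma, and 4 of 73 had an unadjusted p under 0.05, against 7.26% of all genes in either direction. Leukocyte markers had a median of 0.00. Paneth markers read lower in Atg7KO-Low for 9 of 9 (median -0.84, 2 at an unadjusted p under 0.05), with Ang4 at -1.43 (SE 0.35) without overlap. In the EGFP high gate 8 of 9 were lower with a median of -0.70. Goblet markers read lower for 8 of 9 (median -0.19) and enterocyte markers higher for 7 of 10 (median 0.04). None of these markers was called by limma, and their part in the class I differences was not tested.

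**Figure D3:**
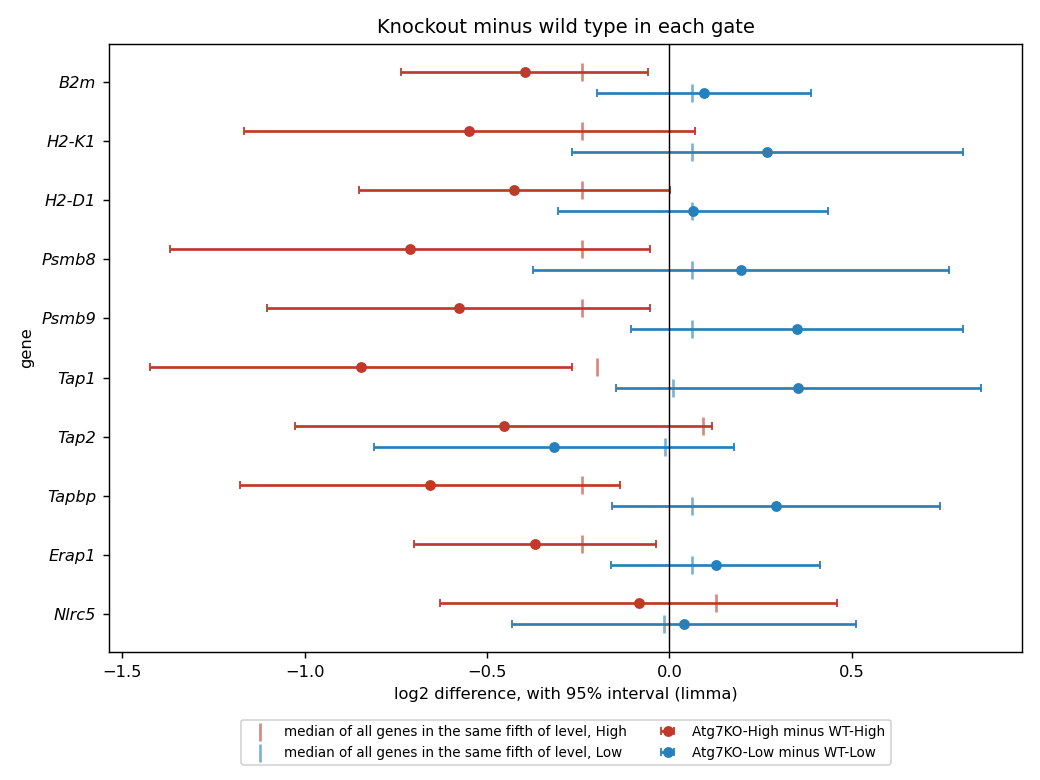
Log2 difference of knockout minus wild type for each gene in the EGFP high gate (red) and the EGFP low gate (blue), with 95% intervals from limma; the short vertical marks give the median of all genes in the same band of mean level. Red points lie at -0.84 to -0.08 and blue points at -0.32 to 0.35.

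Since the signs differed between the gates, the difference of the knockout effects was tested itself. It was negative for all 10 members, with a median of -0.66 (range -1.20 to -0.12), against 52.9% of all genes negative, a median of -0.03 over all genes and of -0.30 over the band with the highest level. Tap1 had the largest, at -1.20 (SE 0.36, interval -1.96 to -0.43, limma adjusted p = 0.232). Tapbp followed at -0.95 (SE 0.32), Psmb9 at -0.93 (SE 0.33), Psmb8 at -0.91 (SE 0.41) and H2-K1 at -0.82 (SE 0.38), with limma adjusted p of 0.262 to 0.357. B2m, H2-D1 and Erap1 lay near each other at -0.49, -0.49 and -0.50. Tap2 at -0.14 (SE 0.35) and Nlrc5 at -0.12 (SE 0.34) lay closest to 0.

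No member was called for this difference, against 0.0063% of all genes, and 6 of 10 had an unadjusted p under 0.05, against 8.49% of all genes negative at that level. The median was -0.40 with cyclic loess, where B2m was at -0.23, H2-D1 at -0.20, H2-K1 at -0.53 and Erap1 at -0.23. With the array SD as a covariate Tapbp was at -0.36 and Erap1 at -0.21. Without the 2 narrowest arrays Tapbp was at -0.60 and H2-K1 at -0.50, and without Atg7KO-High-356 H2-D1 was at -0.30. For Tap1, Psmb9 and Psmb8 no alternative moved the value by over 1.5 times. Outside the members, Irf8 was at -1.22 (SE 0.30, limma adjusted p = 0.195), H2-T23 at -1.19 (SE 0.41), Irgm1 at -1.02 (SE 0.35) and Psmb10 at -0.65 (SE 0.23), none of them called. The class II gene H2-DMb1 was at -2.86 (SE 0.65, limma adjusted p = 0.176). Of the 73 genes in the lists 11 had an unadjusted p under 0.05, against 14% of all genes in either direction. The values were negative for 8 of 8 GTPases (median -0.95), 7 of 7 class II genes (-1.16), 6 of 6 other proteasome genes (-0.29) and 9 of 9 loading partners (-0.36). They were negative for 12 of 17 interferon signalling genes (-0.30), 7 of 8 NLRC5 partners (-0.30) and 11 of 18 other class I genes (-0.15). Among cell type markers the values were negative for 10 of 10 of enterocytes (-0.78), 9 of 9 of goblet cells (-0.53), 7 of 9 of Paneth cells (-0.35), 6 of 9 of stem cells (-0.15) and 7 of 15 of leukocytes (0.02). None of these genes was called by limma, and the part of other cells in the class I values was not tested.

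The next comparison shows how the class I genes differ between stem cells and their progeny in wild type. Of the 10 members 9 read higher in WT-High than in WT-Low cells, with a median of 0.42 (range -0.04 to 0.70), where 54.7% of all genes read higher with a median of 0.03. None was called by limma, against 2.44% of all genes. H2-D1, H2-K1 and Psmb8, 3 of 10, had an unadjusted p under 0.05 and read higher, against 8.88% of all genes. H2-D1 and Erap1 were higher without overlap, against 9.97% of all genes.

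H2-D1 lay at 11.88 to 12.23 in WT-High and at 11.52 to 11.65 in WT-Low, a difference of 0.47 (interval 0.07 to 0.87, limma adjusted p = 0.236). H2-K1 differed by 0.59 (SE 0.27) and Psmb8 by 0.70 (SE 0.29), with limma adjusted p = 0.320 and 0.254. In both genes WT-High-412, the lowest EGFP high sample, overlapped the EGFP low samples. Tap1 (0.50, SE 0.25), Tapbp (0.47, SE 0.23), Nlrc5 (0.37, SE 0.24), Psmb9 (0.34, SE 0.23) and Erap1 (0.23, SE 0.14) had positive differences with intervals that include 0. B2m differed by 0.06, with an interval of -0.26 to 0.37, and Tap2 by -0.04 (SE 0.25). Without WT-High-411 H2-K1 was at 0.39, Tap1 at 0.29 and Psmb9 at 0.18. Tapbp was at 0.25 without WT-Low-411 and Erap1 at 0.12 with cyclic loess, and Nlrc5 at 0.58 without WT-Low-411.

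Of the 73 genes in the lists limma called 1, against 2.44% of all genes, and 11 had an unadjusted p under 0.05, against 14.8% of all genes. The class II genes were all higher in WT-High without overlap, 7 of 7, against 9.97% of all genes, with a median of 1.09. Ciita, the class II transactivator and a relative of Nlrc5, rose by 1.09 (SE 0.26, limma adjusted p = 0.0385). H2-Q7, a class I gene of the Q region, was at 1.41 (SE 0.46, limma adjusted p = 0.138) and Fcgrt, the class I-like receptor of IgG, at -0.71 (SE 0.33), in a list of 18 with 10 higher and a median of 0.07. All 8 GTPases read higher (median 0.51), with Iigp1 at 2.20 (SE 0.80) and Irgm2 at 0.78 (SE 0.45). Rfx5, the DNA-binding RFX subunit shared by both classes of promoter, was at 0.50 (SE 0.24), and Ifngr2, a chain of the interferon gamma receptor, at 0.49 (SE 0.23), both higher without overlap. The loading partner Pdia3 (ERp57) was at -0.45 (SE 0.16) and Tapbpl, the tapasin-related editor, at 0.40 (SE 0.17). Goblet markers differed by a median of -1.40, with 6 of 9 called by limma, against 2.44% of all genes called. Paneth markers differed by -0.78 with 1 of 9 called and enterocyte markers by -0.50 with 1 of 10 called.

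The last comparison set the gates against each other without Atg7. Its contrast with the wild-type gates is the difference of effects above, for which no member was called. Of the 10 members 9 read lower in Atg7KO-High than in Atg7KO-Low cells, with a median of -0.25 (range -0.70 to 0.25). Of all genes 47.9% read lower, and their median was 0.02. In the band with the highest level, where most members lie, the median over all genes was -0.19, and in the next -0.08. The part of this shift in the member differences was not tested. In this comparison limma called 10.9% of all genes but none of the 10 members. B2m, Tap1 and Psmb9, 3 of 10, had an unadjusted p under 0.05 and read lower, against 14.4% of all genes. Tapbp was lower without overlap, against 11.8% of all genes.

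B2m lay at 11.96 to 12.47 in Atg7KO-High and 12.45 to 12.77 in Atg7KO-Low, and differed by -0.43 (SE 0.15, limma adjusted p = 0.0749). Tap1 differed by -0.70 (SE 0.25, limma adjusted p = 0.0886) and Psmb9 by -0.59 (SE 0.23, limma adjusted p = 0.112). Without Atg7KO-High-386 all 3 were called by limma, at -0.56, -0.96 and -0.83 with adjusted p of 0.0353, 0.0289 and 0.0360. The median over the members was then -0.45. That sample was the highest of its group for 9 of 10 members, so leaving it out lowers their group means by construction. Without Atg7KO-Low-356 Tap1 was called, at -0.87 (limma adjusted p = 0.0407), and the median was -0.39. B2m was called with median centring, at -0.53 (limma adjusted p = 0.035), and with a trended robust prior, at -0.43 (limma adjusted p = 0.0298). The share of all genes called that is given above belongs to the main fit. The shares in these alternative fits are not given here, so the member calls cannot be set against them. Tapbp differed by -0.48 (SE 0.23) and Erap1 by -0.27 (SE 0.14), but with the array SD as a covariate Tapbp was at -0.079 and Erap1 at -0.074. With cyclic loess B2m was at -0.21 and Psmb9 at -0.37. H2-D1 differed by -0.02 (SE 0.19), H2-K1 by -0.22 (SE 0.27), Psmb8 by -0.20 (SE 0.29), Tap2 by -0.18 (SE 0.25) and Nlrc5 by 0.25 (SE 0.24). The median was -0.14 without Atg7KO-High-356, -0.09 with the array SD as a covariate and -0.16 with cyclic loess.

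Of the 73 genes in the lists 5 were called here, against 10.9% of all genes, and 18 of 73 had an unadjusted p under 0.05, against 27% of all genes. H2-T23 fell by 1.02 (SE 0.29, limma adjusted p = 0.0374), Irf8 by 0.78 (SE 0.21, limma adjusted p = 0.0298), Irgm1 by 0.81 (SE 0.24, limma adjusted p = 0.0480), Pdia3 by 0.64 (SE 0.16, limma adjusted p = 0.0224) and H2-DMb1 by 1.60 (SE 0.46, limma adjusted p = 0.0385). Psmb10 was at -0.49 (SE 0.16, limma adjusted p = 0.0639) and Nfyb at -0.54 (SE 0.21). Goblet markers read lower for 9 of 9, enterocyte markers for 10 of 10 and Paneth markers for 8 of 9, with medians of -2.15, -1.28 and -1.22. Of these limma called 9, 7 and 5 as lower, against 10.9% of all genes called. Their part in the class I differences was not tested. The leukocyte list had a median of 0.05 (range -0.74 to 0.68), with 10 of 15 higher, 5 lower and none called by limma. Itgae, the integrin of intraepithelial lymphocytes, was at 0.68 (SE 0.25). Gzmb went the other way and was the lowest, at -0.74.

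**Figure D4:**
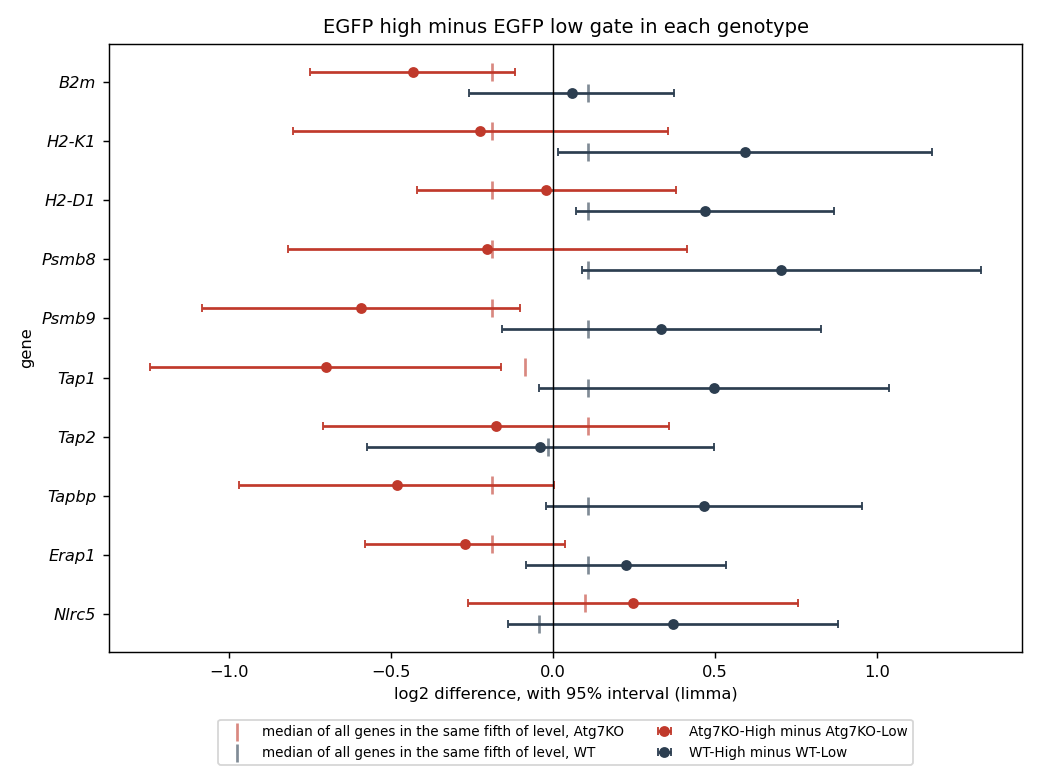
Log2 difference of the EGFP high minus the EGFP low gate for each gene in the knockout (red) and in wild type (dark), with 95% intervals from limma; short vertical marks give the median of all genes in the same band of mean level. Points lie at -0.70 to 0.25 in the knockout and at -0.04 to 0.70 in wild type.

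Set against each gene's own mean over the 14 arrays, many members stood on the same side of it within an array. All 10 were below their means in Atg7KO-High-356 and 8 in Atg7KO-High-348, while 8 were above in Atg7KO-High-386. In WT-High-388 and WT-High-411 all 10 were above, and in WT-High-412 it was 5. In the EGFP low gate 9 were above in Atg7KO-Low-386, 7 in Atg7KO-Low-387, 5 in Atg7KO-Low-356 and 3 in Atg7KO-Low-353, and 7, 2, 2 and 4 in WT-Low-341, WT-Low-407, WT-Low-409 and WT-Low-411. The interferon-inducible GTPases averaged 5.09, 5.63 and 6.50 in Atg7KO-High-356, Atg7KO-High-348 and Atg7KO-High-386, and 6.27, 6.91 and 5.71 in WT-High-388, WT-High-411 and WT-High-412. In the EGFP low gate they averaged 5.40 in Atg7KO-Low-356 and 6.14 to 6.34 in the other knockout samples, and 4.99 to 6.27 in wild type. In the EGFP high gate the order of the samples by class I mean and by GTPase mean was alike except that Atg7KO-High-386 and WT-High-388 changed places with respect to each other. The class II genes averaged 7.57, 8.44 and 8.79 in Atg7KO-High, and 9.39, 9.49 and 8.59 in WT-High, in the same order of samples.

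**Figure D5:**
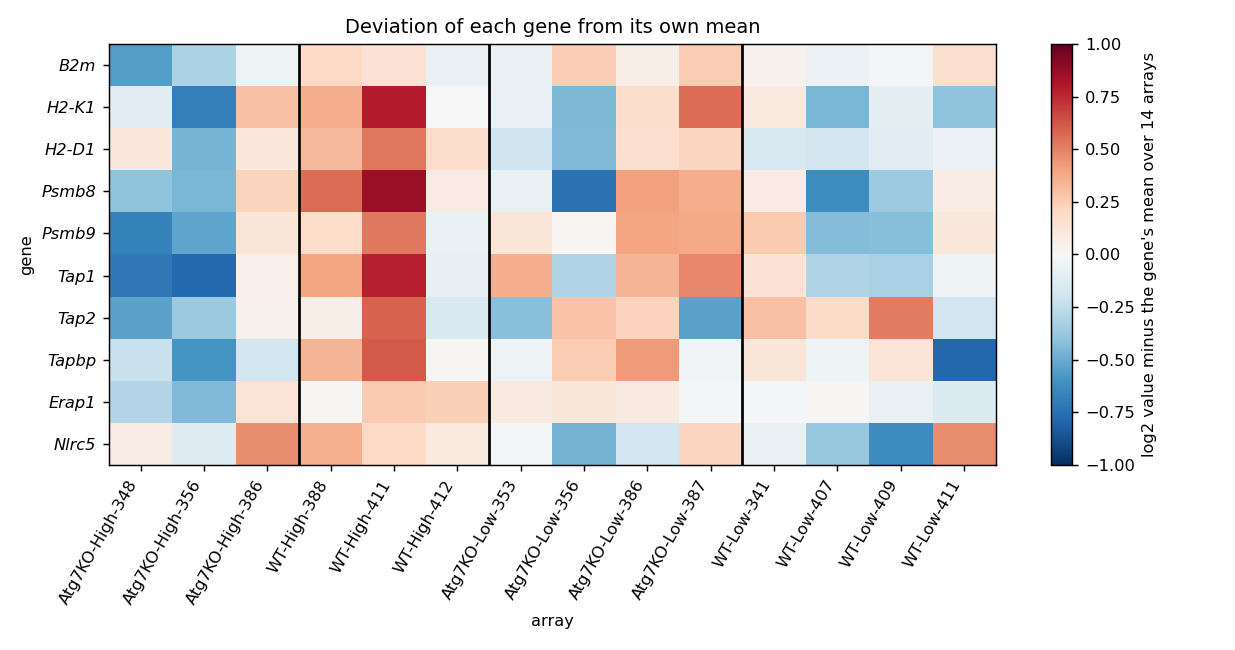
Deviation of each gene's log2 value from its own mean over the 14 arrays, with arrays in columns ordered as Atg7KO-High, WT-High, Atg7KO-Low and WT-Low (black lines between groups). Atg7KO-High-356 is below the mean for all 10 genes and WT-High-388 and WT-High-411 are above for all 10.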

How the data were processed

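RNA of 14 sorted cell samples was measured on 1 array each. Per the submitters' processing notes, the authors made the deposited log2 values with RMA in Affymetrix Expression Console; versions and the grouping of probes were not stated in the sources used here. RMA corrects background, quantile normalizes and summarises probes, which can narrow large differences. Arrays give no read depth, and their number limits the precision. Of 25429 rows, 24675 have 1 gene symbol in the platform annotation and 754 unnamed ones were left out.

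A model with 4 group means was fitted to the 14 arrays together (limma 3.58.1, R 4.3.3; 10 residual and 4.54 prior degrees of freedom). P-values are two-sided and Benjamini-Hochberg adjusted over 15873 genes, with calls at adjusted p under 0.05. SE and 95% intervals come from this fit. Other normalizations, filters, priors, weights, covariates and samples left out were tried as alternatives.

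The members and lists were chosen with earlier results of these data known. All members are named. Of each list, up to 4 called genes by smallest p could be named, or the 2 with the smallest p where none was called. Lists are described by counts and medians.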

Additional observations from a re-analysis of the deposited data

How the results depend on the processing

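No member was called in Atg7KO-High against WT-High, Atg7KO-Low against WT-Low, WT-High against WT-Low or the difference of effects under any alternative run: repeated quantile normalization, cyclic loess, median centring, no filter, a strict filter at the 60th percentile, only the groups compared (not run for the difference of effects, which uses all groups), array weights, a trended robust prior, the array SD as a covariate, the 2 narrowest arrays left out, the replicate block and each sample left out. The strict filter leaves no value for Tap2 and Nlrc5. In Atg7KO-High against Atg7KO-Low the members called were 1 with median centring and 1 with the trended robust prior, and 0 to 3 with samples left out. The shares of all genes called in those fits are not given here. The median of the difference of effects was -0.40 with cyclic loess. The titles share 3 numbers between the gates. Correlations of the deviations from the group means were 0.11, 0.18 and -0.040 between same-numbered samples. Correlations with the other samples of the partner's group were -0.089 to -0.031, -0.15 to -0.035 and -0.15 to 0.14, in the same order. Thus 0.11 and 0.18 lay above their ranges, and -0.040 lay within its range. Deviations within a group sum to 0, so a positive correlation with the same-numbered sample forces a negative one with another. The ranges therefore cannot decide whether the samples are pairs. The labels do not say that the numbers name the mouse, so the numbers were not taken as pairs. With the replicate block the medians were -0.51 for Atg7KO-High against WT-High and -0.66 for the difference of effects, and no call changed.

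Signs turned for small differences, and the cause was not tested. In Atg7KO-High against Atg7KO-Low, H2-D1 was at 0.21 with cyclic loess, 0.025 with array weights and 0.17 without the narrowest arrays, H2-K1 at 0.034 without them, Psmb8 at 0.012 with repeated quantile normalization, and Tap2 at 0.18 and Nlrc5 at -0.036 with the SD covariate. In Atg7KO-Low against WT-Low, B2m was at -0.070 and H2-D1 at -0.080 with cyclic loess. Without the narrowest arrays Nlrc5 was at 0.047 in Atg7KO-High against WT-High. The difference of effects for Tap2 was 0.036 without those arrays and 0.38 with the SD covariate. With samples left out, H2-D1 spanned -0.0292 to 0.19 and Nlrc5 -0.12 to 0.24 in Atg7KO-Low against WT-Low, H2-D1 -0.15 to 0.17 and H2-K1 -0.45 to 0.034 in Atg7KO-High against Atg7KO-Low, Tap2 -0.25 to 0.12 in WT-High against WT-Low, Nlrc5 -0.25 to 0.047 in Atg7KO-High against WT-High, and in the difference of effects Nlrc5 -0.33 to 0.035 and Tap2 -0.30 to 0.073.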
